A study of Mus musculus with 2 samples.

Results

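The genes described here encode core proteins of the spliceosome and factors that guide it to splice sites. They were taken by name, as the genes on the array whose symbol begins with Snrp, Sf3a, Sf3b, Lsm followed by a number, Prpf, Srsf (formerly Sfrs) or U2af. The choice used no measured value and gave 58 of the 16504 measured genes, read by 63 of the 22393 array features. RNA came from thymocytes, the T cells that develop in the thymus, of homozygous null (-/-) mice, in which the gene studied is inactivated, and of wild-type (+/+) mice. Equal RNA of 3 mice was pooled per genotype. Both pools were hybridised together to each of 2 two-colour arrays. The first array carried null RNA in Cy5, and the second carried it in Cy3. Strain, age and the design of the null allele are not given in the sources used here, and source names say thymus while the sample description says thymocytes.

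Each value below is a log2 ratio of the null pool over the wild-type pool. The arrays are a technical dye swap of 1 pool per genotype, so each SD is the technical spread between the 2 arrays, dye effects included. Spread between mice is unknown, and no test between genotypes was possible. A gene was called higher or lower where both arrays differed the same way by 1.5-fold or more. A 1.2-fold rule on both arrays was also counted, because small differences are usual for genes expressed in every cell. The rules were chosen with earlier results of these data known, so their counts describe the genes and are no independent support. The direction, on which each order and count below rests, is likely and was inferred, since the second column appears to have been turned already to null over wild type. Over all features, the columns correlated with r = -0.447, over features without a gene name with r = -0.861, and over genes with r = 0.238. The file holds ratios without intensities, so signal over background is unknown, the presence of thymocyte markers could not be checked, and no level was compared between genes. In pooled bulk RNA, fewer cells of a type and less RNA per cell cannot be told apart.

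The spliceosome removes introns from new transcripts. It is built from small nuclear ribonucleoproteins (snRNPs), each a small nuclear RNA with a shared ring of Sm proteins and proteins of its own. U1 binds the start of the intron, U2 and the U2AF dimer recognise the branch point and the intron's end, and the U4/U6 and U5 tri-snRNP brings in the catalytic centre. SR proteins, named for their serine and arginine repeats, bind exons and recruit U1 and U2AF. Thymocytes use regulated splicing for transcripts such as that of the phosphatase Ptprc (CD45), and splicing genes in general are expressed in every cell.

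As a group, the splicing genes were shifted upward in the null pool by a small amount. Of the 58 genes, 35 lay above 0 on both arrays and 2 lay below, while over all genes 25.0% lay above and 25.0% below. The other 21 lay on opposite sides of 0. By the 1.2-fold rule, 13 genes (22.4%) were higher in the null pool and none was lower, against 3.43% and 3.75% of all genes. Snrpd1 alone was called higher at 1.5-fold and no gene was called lower, against 0.412% and 1.11% of all genes. The median over the 58 genes was 0.23 (1.17-fold), with 0.22 on the first array and 0.19 on the second, while the median of all genes was 0.00 on each array. The plot of the distribution shows this shift.

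**Figure D1:**
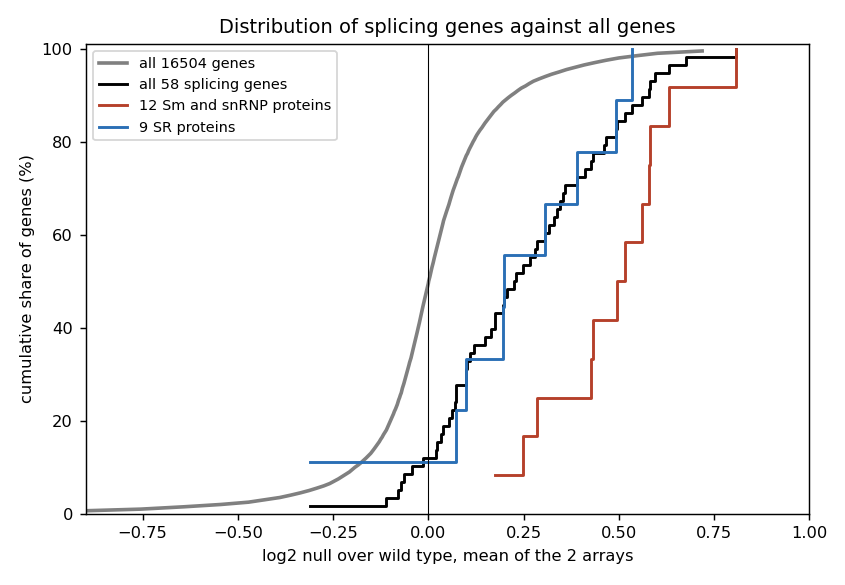
Cumulative share of genes (y axis, percent) by the log2 ratio of null over wild type, mean of the 2 arrays (x axis), for all 16504 genes, the 58 splicing genes, the 12 Sm and snRNP protein genes and the 9 SR protein genes. The curve of the splicing genes lies to the right of that of all genes, with medians of 0.23 and 0.00.

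The 2 arrays did not rank the splicing genes alike. Across the 58 genes, which share arrays, dyes and pools, Pearson's r between the arrays was -0.114, and 0.0383 without Snrpb. Averaged over the arrays, ratios had an SD of 0.23 over the 58 genes and 0.22 over all genes. The dye term, the first array minus the second, divided by 2, had an SD of 0.26 over the 58 genes and 0.18 over all genes. The dye term and the SD given per gene both come from the gap between the 2 arrays. In that gap, a dye effect and other technical noise cannot be told apart. By the 1.2-fold rule, 3 of the 58 genes (Snrpb, Lsm14b and Prpf4b) went opposite ways on the arrays, a share near the 3.81% of all genes.

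**Figure D2:**
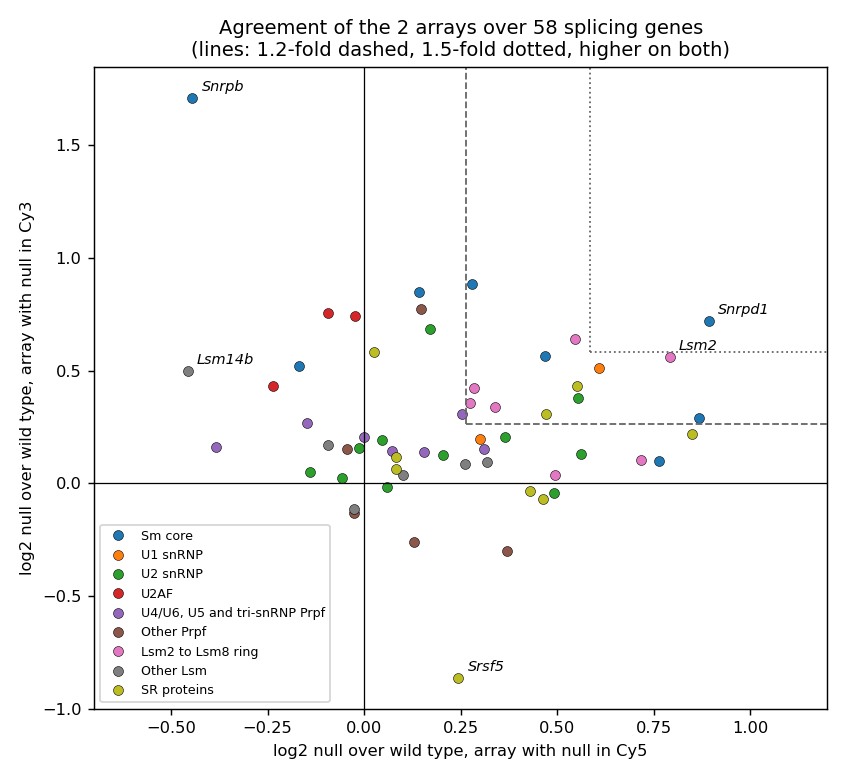
Log2 ratio of null over wild type for each of the 58 genes on the first array (null in Cy5, x axis) and the second (null in Cy3, y axis), coloured by role. The 13 genes in the dashed corner are at least 1.2-fold higher on both arrays, Snrpd1 alone lies in the dotted 1.5-fold corner, and Snrpb and Srsf5 lie far from the rest.

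By the mean of the arrays, the Sm core genes had the highest median of the groups by role. On the first array alone their median was below those of the Lsm2 to Lsm8 ring, U1 and SR genes, and on the second it was below that of U2AF. Their proteins form the ring that assembles on the U1, U2, U4 and U5 RNAs. Snrpd1 had the highest mean of all 58 genes, at 0.89 on the first array and 0.72 on the second, a mean of 0.81 (SD 0.12) or 1.75-fold. Snrpf gave 0.47 and 0.56 (mean 0.52, SD 0.07), the closest arrays of the Sm core. For both genes the mean was larger than the spread between the arrays. With the second column turned, the Sm core median would be -0.18 and the mean of Snrpd1 0.09. Snrpg (0.87 and 0.29, mean 0.58, SD 0.41) and Snrpd2 (0.28 and 0.89, mean 0.58, SD 0.43) also passed the 1.2-fold rule, though each stood high on a different array. Snrpe gave 0.76 and 0.10 (mean 0.43, SD 0.47), and Snrpd3 gave 0.14 and 0.85 (mean 0.50, SD 0.50). For these 2 genes the spread between the arrays was as large as the mean.

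Snrpb, which encodes SmB and SmB', disagreed most. It stood at -0.45 on the first array and at 1.71 on the second, so its mean of 0.63 (SD 1.52) carries no direction. Its paralog Snrpn, an imprinted gene known mainly from brain, gave -0.17 and 0.52 (mean 0.18, SD 0.49). The coding sequences of these paralogs are alike. Whether their features bind each other's transcripts was not tested, and their values are uncertain. The 6 Sm genes other than Snrpb and Snrpn were all above 0 on both arrays, with a median of 0.55. The 8 Sm core genes together had the same median of 0.55, with 0.37 on the first array and 0.64 on the second.

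**Figure D3:**
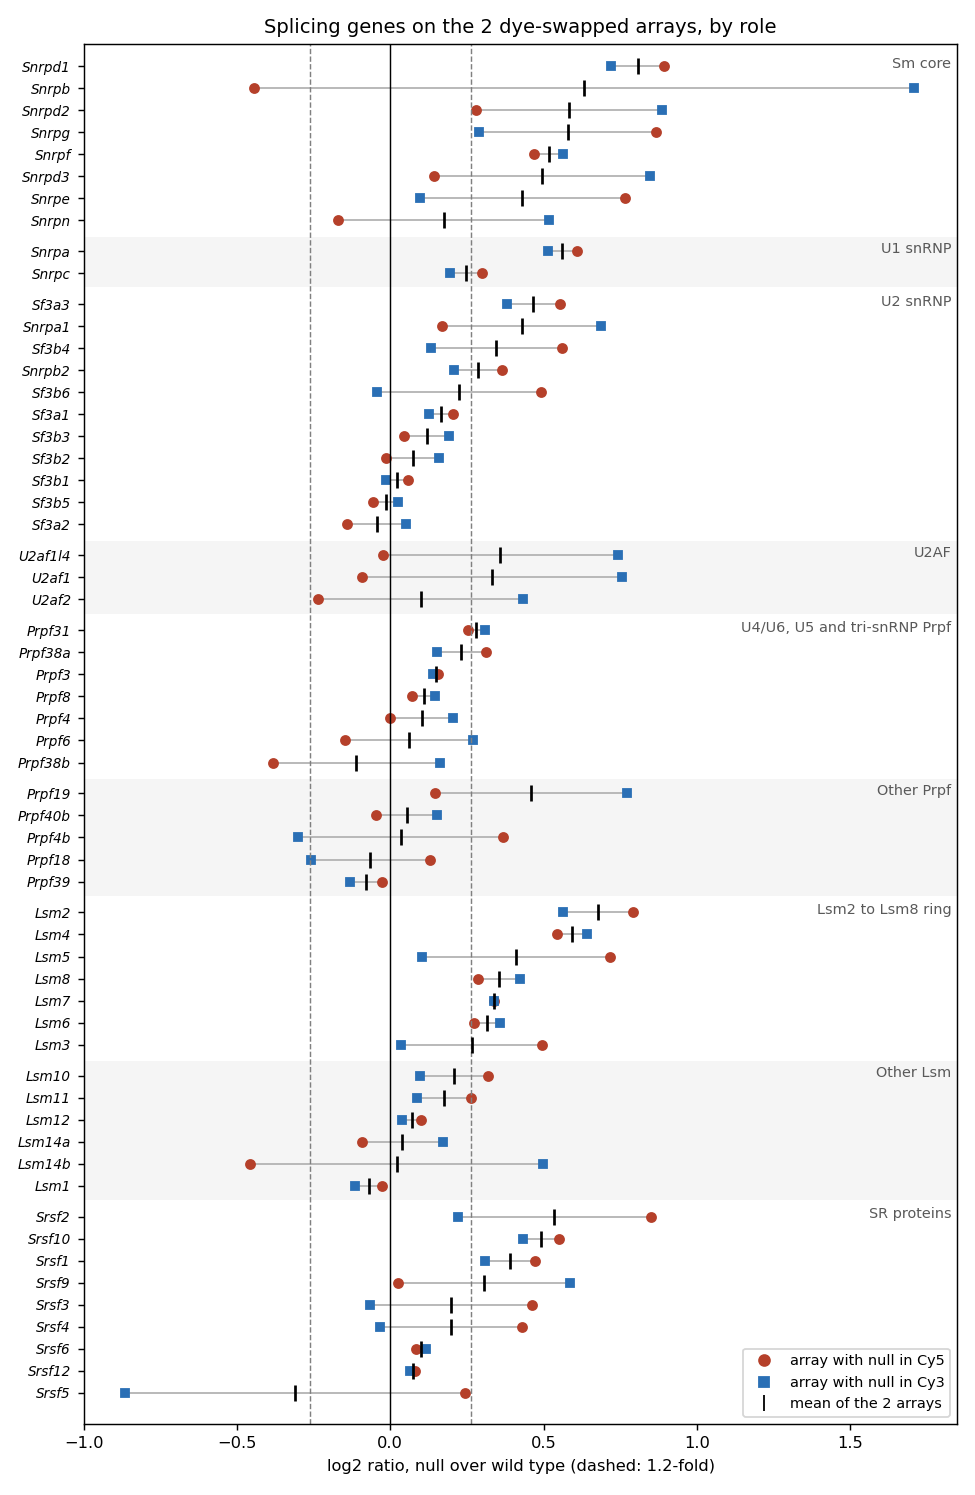
Log2 ratio of null over wild type (x axis) for each of the 58 splicing genes, grouped by role. Circles are the first array (null in Cy5), squares the second (null in Cy3), ticks their mean, and dashed lines mark 1.2-fold. Most Sm core genes and all 7 genes of the Lsm2 to Lsm8 ring lie to the right of 0, and the 3 U2AF genes have their arrays far apart.

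Among the proteins particular to U1 and U2, 1 gene of each passed the 1.2-fold rule. For U2 this was 9.09%, against 3.43% of all genes. Snrpa, which binds a stem loop of U1 RNA, stood at 0.61 and 0.51 (mean 0.56, SD 0.07), within the range of the Sm core. Snrpc, the U1 protein that steadies the contact with the start of the intron, gave 0.30 and 0.20 (mean 0.25, SD 0.07). The third U1 protein gene, Snrnp70, which the choice by name leaves out, lay on both sides of 0 (0.08 and -0.20). Of the 11 U2 genes, 6 (54.5%, against 25.0% of all genes) lay above 0 on both arrays, none lay below, and the median was 0.17. Sf3a3, a subunit of the SF3a complex that joins U2, passed the 1.2-fold rule at 0.55 and 0.38 (mean 0.47, SD 0.12). Snrpa1 gave 0.17 and 0.69 (mean 0.43, SD 0.37), and Snrpb2, which binds U2 RNA with it, gave 0.36 and 0.21 (mean 0.29, SD 0.11).

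The 9 SF3a and SF3b genes had a median of 0.12, below that of the 12 Snrp genes at 0.51. Sf3b1, the large SF3b subunit that clasps the branch point, was close to 0 on both arrays (0.06 and -0.01, mean 0.02, SD 0.05). Sf3b5 (-0.06 and 0.03) and Sf3a2 (-0.14 and 0.05) were also near 0. Sf3b4 gave 0.56 and 0.13 (mean 0.35, SD 0.30). Sf3b2 and Sf3b3 were each read by 2 features whose means differ in sign. The features' means were -0.07 and 0.30 for Sf3b3 and -0.03 and 0.17 for Sf3b2.

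The 3 U2AF genes could not be given a direction. U2af1, whose protein reads the last bases of the intron, stood at -0.09 and 0.75 (mean 0.33, SD 0.60). Its paralog U2af1l4 gave -0.02 and 0.74 (mean 0.36, SD 0.54). U2af2, whose protein binds the pyrimidine tract, gave -0.24 and 0.43 (mean 0.10, SD 0.47). All 3 lay below 0 on the first array and at 0.43 or more on the second. U2af1 and U2af1l4 are alike in sequence, and whether their values are independent was not tested.

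No tri-snRNP or other Prpf gene passed the 1.2-fold rule in a shared direction. Among the 7 tri-snRNP members, 4 (57.1%, against 25.0% of all genes) lay above 0 on both arrays, none lay below, and the median was 0.11. Prpf31, a protein of the U4/U6 and U5 tri-snRNP, was the highest of them at 0.25 and 0.31 (mean 0.28, SD 0.04). Prpf8, the large scaffold of the catalytic centre, gave 0.07 and 0.15 (mean 0.11, SD 0.05). Prpf38b was the lowest of them at -0.38 and 0.16 (mean -0.11, SD 0.38). Of the 5 other Prpf genes, Prpf19, a ubiquitin ligase of the activated spliceosome, stood highest at 0.15 and 0.77 (mean 0.46, SD 0.44). Prpf4b, a kinase of splicing factors, was past 1.2-fold in opposite directions at 0.37 and -0.30. Prpf18, which acts in exon joining, gave 0.13 and -0.26 (mean -0.07, SD 0.27). Prpf39 was 1 of the 2 genes below 0 on both arrays, at -0.03 and -0.13 (mean -0.08, SD 0.07).

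The Lsm2 to Lsm8 genes, whose proteins form the ring on U6 RNA, lay above 0 as the columns were read. All 7 did so on both arrays and 5 (71.4%) passed the 1.2-fold rule, against 25.0% and 3.43% of all genes. The medians were 0.50 on the first array and 0.36 on the second. Lsm2 stood at 0.79 and 0.56 (mean 0.68, SD 0.16) and Lsm4 at 0.54 and 0.64 (mean 0.59, SD 0.07). Lsm8 gave 0.29 and 0.42 (mean 0.35, SD 0.10), Lsm7 gave 0.34 on each array, and Lsm6 gave 0.27 and 0.36 (mean 0.32, SD 0.06). In these 5 genes the SD between arrays was at most 0.16. Lsm5 (0.72 and 0.10, mean 0.41, SD 0.43) and Lsm3 (0.50 and 0.04, mean 0.27, SD 0.32) were above 0 on both arrays but stood high on the first array only. With the second column turned, the ring's median would be -0.0003, with Lsm4, Lsm6, Lsm7 and Lsm8 below 0.

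Lsm1, which takes the place of Lsm8 in the cytoplasmic ring that promotes mRNA decay, was not higher. It gave -0.03 and -0.11 (mean -0.07, SD 0.06), the other of the 2 genes below 0 on both arrays. Lsm10 and Lsm11, which belong to the U7 snRNP that processes histone transcripts, had means of 0.21 and 0.18 and did not pass the 1.2-fold rule. Lsm14b, a protein of cytoplasmic mRNA granules, stood at -0.46 and 0.50 (mean 0.02, SD 0.68), and Lsm14a and Lsm12 had means of 0.04 and 0.07. The 6 Lsm genes outside the U6 ring had a median of 0.05. Across the 16 genes of all roles that were neither Sm nor SR genes, past 1.2-fold nor among the highest or lowest of the rest, ratios ran from -0.24 to 0.50 on the first array and from -0.30 to 0.43 on the second.

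The 9 SR protein genes gave a mixed picture, with 6 (66.7%, against 25.0% of all genes) above 0 on both arrays and none below. Their median was 0.20, and no value was read for Srsf7 and Srsf11. Srsf10, a splicing factor that turns repressive when dephosphorylated, stood at 0.55 and 0.43 (mean 0.49, SD 0.08). Srsf1, the founding SR protein, stood at 0.47 and 0.31 (mean 0.39, SD 0.12), and its 2 features had close means of 0.37 and 0.41. These were the SR genes that passed the 1.2-fold rule (22.2%, against 3.43% of all genes). Srsf2 gave 0.85 and 0.22 (mean 0.53, SD 0.44) and Srsf9 gave 0.03 and 0.59 (mean 0.31, SD 0.40), with spreads near or above their means. Srsf3 (0.46 and -0.07) and Srsf4 (0.43 and -0.03) had the same mean of 0.20 and lay on opposite sides of 0. Srsf6 (0.08 and 0.12) and Srsf12 (0.08 and 0.07) were close to 0 on both arrays. Srsf5 had the lowest mean of all 58 genes, from 0.24 and -0.86 (mean -0.31, SD 0.78), with no shared direction. With the second column turned, its mean would be 0.55.

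The Sm and snRNP proteins were then compared with the SR proteins. The 12 Snrp genes had a median of 0.51, with 10 (83.3%) above 0 on both arrays and 5 (41.7%) past 1.2-fold. Over all genes these shares were 25.0% and 3.43%. The difference from the SR median was 0.31 on the mean of the arrays, but it was -0.10 on the first array and 0.43 on the second. Its SD between the arrays, 0.37, was larger than the difference itself, and the arrays did not agree on its sign, so no direction is given. Without Snrpb the difference was 0.30 (arrays -0.06 and 0.40). The SR genes stood higher on the first array (median 0.43) than on the second (0.12), while the Snrp genes gave 0.33 and 0.54.

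Other genes of the splicing pathway were read in lists apart from the 58. Of 130 measured genes on these lists, 60 lay above 0 and 14 below 0 on both arrays, and 13 were higher and 4 lower by the 1.2-fold rule. Over all genes 25.0% lay on each side, and 3.43% were higher and 3.75% lower, so the count of lower genes was near the background. Among 17 other snRNP proteins, 13 lay above 0 on both arrays and none below. Ppih, a cyclophilin of the U4/U6 snRNP, was called higher at 0.89 and 0.66 (mean 0.78, SD 0.16), with Phf5a (0.30 and 0.67) and Eftud2 (0.30 and 0.38) past 1.2-fold. Phf5a belongs to SF3b and Eftud2 to U5. Of 38 factors of the later complexes, 18 lay above and 2 below 0 on both arrays, and their median was 0.06. Ppil1, a cyclophilin of the activated spliceosome, stood at 0.50 and 0.46 (mean 0.48, SD 0.03). The RNA helicase Ddx39b (0.42 and 0.33) and Isy1 (0.28 on each array) also passed 1.2-fold. Below 0 were Syf2 (-0.18 and -0.02) and, barely, Smndc1.

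The hnRNP genes, whose proteins coat new transcripts and often oppose SR proteins, mostly stood above 0 as well. Of 23, 16 (69.6%, against 25.0% of all genes) were above 0 on both arrays and none was below. The other 7 lay on opposite sides of 0, and the median of the 23 was 0.31. The median was 0.40 on the first array and 0.18 on the second, and 1 gene was past 1.5-fold in opposite directions. Hnrnpa1 (0.59 and 0.54, mean 0.56, SD 0.04), Hnrnpab (0.70 and 0.36), Hnrnpu (0.40 and 0.46) and Hnrnpc (0.39 and 0.40) passed the 1.2-fold rule (17.4%, against 3.43% of all genes). Of 14 genes that assemble snRNPs, 7 lay above and 1 below 0 on both arrays, and Gemin6, a subunit of the SMN complex, stood highest at 0.47 and 0.54 (mean 0.50, SD 0.05). Prmt7, an arginine methyltransferase that acts on Sm proteins, gave 0.43 and 0.33, and Strap gave 0.32 and 0.26. Gemin5 (-0.18 and -0.01) was the gene below 0.

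The kinases and partners of SR proteins did not share this direction. Of 20, 2 were above and 7 below 0 on both arrays, and the median was -0.03. Clk3, a kinase that phosphorylates SR proteins, was called lower at -0.81 and -0.62 (mean -0.71, SD 0.13). Its relative Clk4 (-0.29 and -0.39, mean -0.34, SD 0.07) and the cyclin Ccnl2 (-0.32 and -0.44, mean -0.38, SD 0.08) were lower by the 1.2-fold rule. With Clk3, 3 of the 20 were lower by this rule, against 3.75% of all genes. At 1.5-fold 1 of the 20 was lower, against 1.11%. The SR-like Tra2b (0.31 and 0.05) and Clasrp (0.14 and 0.03) were the 2 above 0. Of 18 other splicing regulators, 4 (22.2%) lay above 0 and 4 below 0 on both arrays, near the 25.0% of all genes on each side. Tardbp (0.33 and 0.35) was past 1.2-fold upward (5.56%, against 3.43% of all genes). Mbnl2 (-0.35 and -0.50), a regulator of tissue-specific exons, was past it downward, against 3.75% of all genes. Values nearer 0 were given by other genes of this list, with Rbm10 at 0.11 and 0.14, Raly at 0.05 and 0.21, Rbfox2 at -0.09 and -0.05 and Rbm5 at -0.24 and -0.04.

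**Figure D4:**
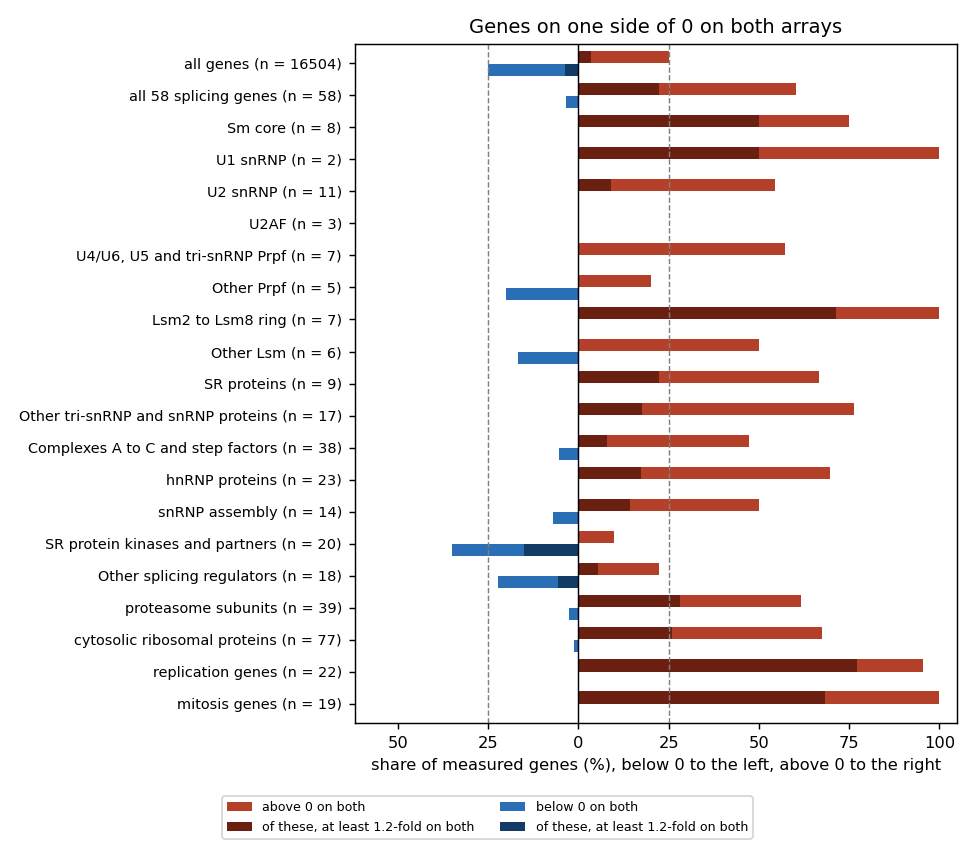
Share of measured genes (x axis, percent) above 0 on both arrays (right) or below 0 on both arrays (left), for the 58 splicing genes, their role groups, other splicing lists and 4 comparison groups, with the part past 1.2-fold on both arrays in a darker shade. Dashed lines mark 25%, close to the shares over all genes. The bars of the Lsm2 to Lsm8 ring, U1 and mitosis genes reach 100% to the right. Those of replication genes reach 95.5%, other snRNP proteins 76.5% and the Sm core 75.0%. The SR protein kinases and partners reach farthest to the left.

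On the mean of the arrays, larger medians than that of the splicing genes were also seen outside splicing. Over all genes, 25.0% lay above and 25.0% below 0 on both arrays, and 3.43% were higher by the 1.2-fold rule. Of 39 proteasome subunit genes, 24 (61.5%) stood above 0 on both arrays (median 0.31). Of 77 cytosolic ribosomal protein genes, 52 (67.5%) did (median 0.41, with 0.64 and 0.14 on the arrays). So did 7 of 8 genes of the chaperonin CCT (median 0.53). Genes of dividing cells stood higher in the null pool too. Of 22 replication genes, 21 lay above 0 on both arrays and 17 were past 1.2-fold, with a median of 0.60, and of 19 mitosis genes, all 19 and 13 did so, with a median of 0.48. The part of these genes' shift in that of the splicing genes was not tested. Markers of most other cell types also lay mainly on one side of 0. Above 0 on both arrays were 8 of 8 neutrophil markers (median 0.53). Below 0 on both arrays were 6 of 6 B cell markers (median -0.26), 7 of 8 macrophage and dendritic cell markers (-0.62) and 6 of 8 thymic epithelium markers (-0.22). So were 8 of 11 thymocyte markers (-0.33). Erythroid markers did not share a direction, with 1 of 5 above 0 (20.0%, against 25.0% of all genes) and 2 below (median 0.05). The part of these markers in the splicing result was not tested.

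Promoter sequence was read to see what the genes share that the choice by name did not use. RefSeq promoter windows (GRCm38.p6, 250 bases before to 50 after a start) matched 49 of the 58 genes and 13223 of all genes. Snrpd1, Snrpb and Lsm4 were among the genes without a window. Motifs were searched on both strands, overlapping matches included. The letters CCGGAA, the core of sites for ETS factors, stood in a window of 24 of the 49 genes (49.0%), against 23.8% of all genes. It stood in 3 of the 11 members past 1.2-fold that have a window. In genes with 1 window the shares were 48.7% and 21.9%. No other family of genes expressed in every cell was counted, so whether the share is particular to splicing genes was not tested. The letters CCAAT stood in 22 genes (44.9%, against 42.3%), and CACGTG, the E box that Myc and Max can bind, in 4 (8.16%, against 10.3%). In genes with 1 window the shares were 41.0% and 39.1% for CCAAT, and 2.56% and 9.02% for CACGTG. A match describes the letters in the window and not a bound site. Members with and without CCGGAA had median ratios of 0.23 and 0.27.

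Shown here are the 250 bases before the start for Snrpa and Snrpf, higher on both arrays with close values, for Srsf2, the SR gene with the highest mean, and for Srsf5, with the lowest. Each reads in the direction of the gene, with matches to these 3 motifs, on either strand, in capitals. Snrpa has 2 windows, and the one farthest upstream is shown. Snrpa lies on the minus strand (chr7:27196272-27196521), Snrpf on the minus strand (chr10:93589659-93589908), Srsf2 on the minus strand (chr11:116853095-116853344) and Srsf5 on the plus strand (chr12:80945249-80945498).
Snrpa: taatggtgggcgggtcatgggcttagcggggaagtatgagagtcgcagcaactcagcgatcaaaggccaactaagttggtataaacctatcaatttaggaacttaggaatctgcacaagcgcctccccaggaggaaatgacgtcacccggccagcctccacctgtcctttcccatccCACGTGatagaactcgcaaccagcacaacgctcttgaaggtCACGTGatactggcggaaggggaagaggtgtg
Snrpf: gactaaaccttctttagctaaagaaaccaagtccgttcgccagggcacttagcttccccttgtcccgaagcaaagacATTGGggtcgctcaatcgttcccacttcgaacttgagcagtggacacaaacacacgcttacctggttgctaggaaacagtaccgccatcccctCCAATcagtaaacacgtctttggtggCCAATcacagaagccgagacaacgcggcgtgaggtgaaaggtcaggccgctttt
Srsf2: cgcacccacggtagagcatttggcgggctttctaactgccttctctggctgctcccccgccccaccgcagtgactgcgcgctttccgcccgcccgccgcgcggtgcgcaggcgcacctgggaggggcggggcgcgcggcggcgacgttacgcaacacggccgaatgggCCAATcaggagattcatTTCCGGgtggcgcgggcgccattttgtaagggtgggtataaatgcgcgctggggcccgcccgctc
Srsf5: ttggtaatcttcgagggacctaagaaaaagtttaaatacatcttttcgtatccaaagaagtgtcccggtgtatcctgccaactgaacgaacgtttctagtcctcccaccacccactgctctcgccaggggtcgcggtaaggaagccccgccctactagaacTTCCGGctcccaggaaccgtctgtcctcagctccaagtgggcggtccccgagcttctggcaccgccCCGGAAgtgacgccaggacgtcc

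Snrpa, 1 of the 4 members with CACGTG, held 2 copies of it and none of the other motifs, and Snrpf held 3 of CCAAT. Srsf2 held 1 CCGGAA and 1 CCAAT, and Srsf5 held 2 of CCGGAA. The gene with the highest SR mean and the gene with the lowest thus both carried that ETS core in this window.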

How the data were processed

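Per the labels, thymocyte RNA of 3 mice was pooled per genotype, amplified, labelled with Cy3 or Cy5 and hybridised, 750 ng of each, for 17 h to arrays of 60-base probes. Per the submitters' processing notes, Agilent Feature Extraction 7.1 gave the ratios, with default settings per the series' design text. The deposited values were taken as log10 ratios, the usual scale of this software, and converted to log2. Base, centring and direction are not given in the sources used here. Column medians were -0.00141 and 0.00112, so nothing was centred. The first column writes its 80 zeros as 0 and the second its 82 zeros as -0, the trace of a change of sign, so both columns were read as null over wild type.

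Symbols of 18218 of 22393 features came from the platform annotation, 18175 of them matched by gene ID to RefSeq GRCm38.p6, and features of a gene were averaged. The number of arrays limits the precision. Genes named in full were the Sm core and SR genes, those past 1.2-fold, the 8 highest and 8 lowest others and those whose features differ in sign, with Snrpc, Prpf8, U2af2 and Lsm3 chosen after their values were seen. Of the other splicing lists, those past 1.5-fold and the 3 highest and 3 lowest by the smaller absolute ratio of the arrays, among genes with the same sign on both, were named, and Hnrnpab, chosen after its values were seen. The members, lists and rules were chosen with earlier results of these data known, and the ribosomal, proteasome and CCT families were chosen after seeing the data. Alternatives are in the closing section. The targeted gene is not reported here. Python 3.11.15, numpy 2.4.6, pandas 2.3.3 and matplotlib 3.10.9 were used.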

Additional observations from a re-analysis of the deposited data

How the results depend on the processing

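With 1 pool per genotype and 2 arrays, no alternative measures the spread between mice. No paired analysis was possible because a dye swap of 1 pool per genotype offers no pairs and no test. Centring, the feature with the largest change, genes with 1 feature and the set without Snrpn kept every count within 1.5 times and moved neither median by more than the SD between arrays. So did leaving out Snrpb, an alternative chosen after seeing the data.

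The results rest on the reading of the columns. With the second column taken as raw and turned, no gene was called higher (0), 7 genes lay above and 14 below 0 on both arrays, and 1 gene was higher and 2 lower by the 1.2-fold rule. The median was then 0.0080 and the difference between Snrp and SR genes -0.0819. As read, 21 of the 58 genes and 8257 of all 16504 genes lay on opposite sides of 0, and turning puts these on the same side. How all genes divide above and below 0 under the turned reading was not counted, so its counts have no background. With the deposited values taken as log2, 0 genes passed either rule upward and the median was 0.0685. Setting the Sm core alone against the SR genes gave 0.35. At 2-fold, 0 genes were called higher. With a dye term of at most 0.3, the median was 0.20, over fewer genes.

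On 1 array alone, a gene has to pass only once. Called higher were 7 to 10 genes and lower 0 to 1, and by the 1.2-fold rule 25 to 26 were higher and 2 to 3 lower. Above 0 lay 42 genes on the first array and 49 on the second, and below 0 lay 16 and 9. Shares of all genes on 1 array were not counted, so these counts have no background beside them. The median ranged from 0.19 to 0.22 and the difference between Snrp and SR genes from -0.10 to 0.43. The cause of these changes was not tested beyond this.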
